A study of Arabidopsis thaliana with 6 samples.

Results

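The 38 genes described here belong to the jasmonate pathway of Arabidopsis thaliana, the thale cress. They were chosen by gene identifier, 38 of the 32833 identifiers counted, and cover jasmonate synthesis, signalling, turnover and 2 classical response genes. Their transcripts were compared in roots of the wild type (Col accession, called WT) and of a line labelled myb68 myb84, named for a pair of related R2R3 MYB transcription factor genes. The study asks how these factors act on suberin deposition and stem cell proliferation in the cork. Each genotype had 3 libraries, each from a separate pool of at least 40 untreated plants grown on plates at 22 °C in constant light, and the RNA came from the uppermost 2 cm of the primary root at 18 days. The sources used here do not say which alleles the line carries or whether it was backcrossed.

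Jasmonates are lipid hormones of wounding, defence and growth control. In the plastid, lipases release polyunsaturated fatty acids, 13-lipoxygenases (LOX) oxygenate them, and allene oxide synthase (AOS) and allene oxide cyclases (AOC) turn the product into a cyclic precursor. In the peroxisome, the reductase OPR3, the ligase OPCL1 and the acyl-CoA oxidase ACX1 finish jasmonic acid, and JAR1 joins it to isoleucine to give the active hormone. The F-box protein COI1 and a JAZ repressor bind this hormone together, the JAZ protein is destroyed, and MYC transcription factors are freed from the JAZ and NINJA repressor complex. Most JAZ genes and many synthesis and turnover genes are themselves induced by the hormone, so that their transcripts are often read as a sign of signalling.

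Total counts ran from 19446419 to 55907128 per library, and 20941 genes were tested. MYB84 fell in the line labelled myb68 myb84 (log2 fold change -0.70, adjusted p = 0.0442). The sample labels name myb84, whereas the study's description has MYB86 in that place once, and which is meant was not settled here. MYB68 transcripts were not lower there, at 49.3 to 62.3 CPM in WT and 60.8 to 74.8 CPM in the mutant (0.34, adjusted p = 0.0613), and where the lesions lie relative to the counted exons is unknown here. Markers of root cell types were present in all libraries, with summed levels of 163 to 189 CPM for 5 xylem genes, 139 to 156 CPM for 4 phloem genes and 122 to 253 CPM for 3 root hair genes. CPM is counts per 1e6 counts of the library after TMM scaling, which corrects for library composition. The 5 markers of suberized cells summed to 457 to 488 CPM in WT and 315 to 380 CPM in the mutant, and 4 of them were lowered. Of 3 root hair markers 2 were raised, and of 12 photosynthetic markers 6 were raised. Of 4 phloem markers, NAKR1 was lowered (log2 -0.42, edgeR adjusted p = 0.0252), and of 5 xylem markers 0 passed. Over all tested genes, 4.66% were raised and 3.65% lowered at an adjusted p under 0.05. The part of these markers' cell types in the VSP1 and CYP94B3 results was not tested. In bulk tissue, fewer cells of a type and less RNA per cell cannot be told apart.

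Most jasmonate genes did not pass the test between myb68 myb84 and WT, and 5 single genes passed. VSP1, a response gene with the lowest adjusted p of the 38, fell to 0.435 times its WT level, and CYP94B3, a hormone-inactivating enzyme, rose 1.61-fold. The lipoxygenase gene LOX6, the cyclase gene AOC1 and the repressor gene JAZ9 were lowered. The calls of VSP1 and CYP94B3 held in all 6 fits that left out 1 library. Those of LOX6, AOC1 and JAZ9 held in 4, 2 and 2 of these fits. Of the 38 members, 37 had enough counts to be tested, of which 1 was raised, 4 were lowered and 32 did not pass an adjusted p of 0.05. This is 13.5% of those tested, against 8.30% of all genes tested, and the directions were 4.66% raised and 3.65% lowered over all genes. DESeq2 called 6 members and limma-voom 4. The members called numbered 3 in the fit without mutant library 1 or 2 and 2 in the fit without mutant library 3. Without WT 2 the balance turned to 3 raised (CYP94B3, AOS and JRG21) and 2 lowered. The median log2 fold change was 0.05 over the tested members and -0.0026 over all tested genes, with median sizes of 0.19 and 0.14. The 2 genotypes did not overlap in 10 of the 37 genes, or 27.0%, against 27.2% of all tested genes. The plot of log2 fold changes by role shows where the 5 calls lie.

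**Figure D1:**
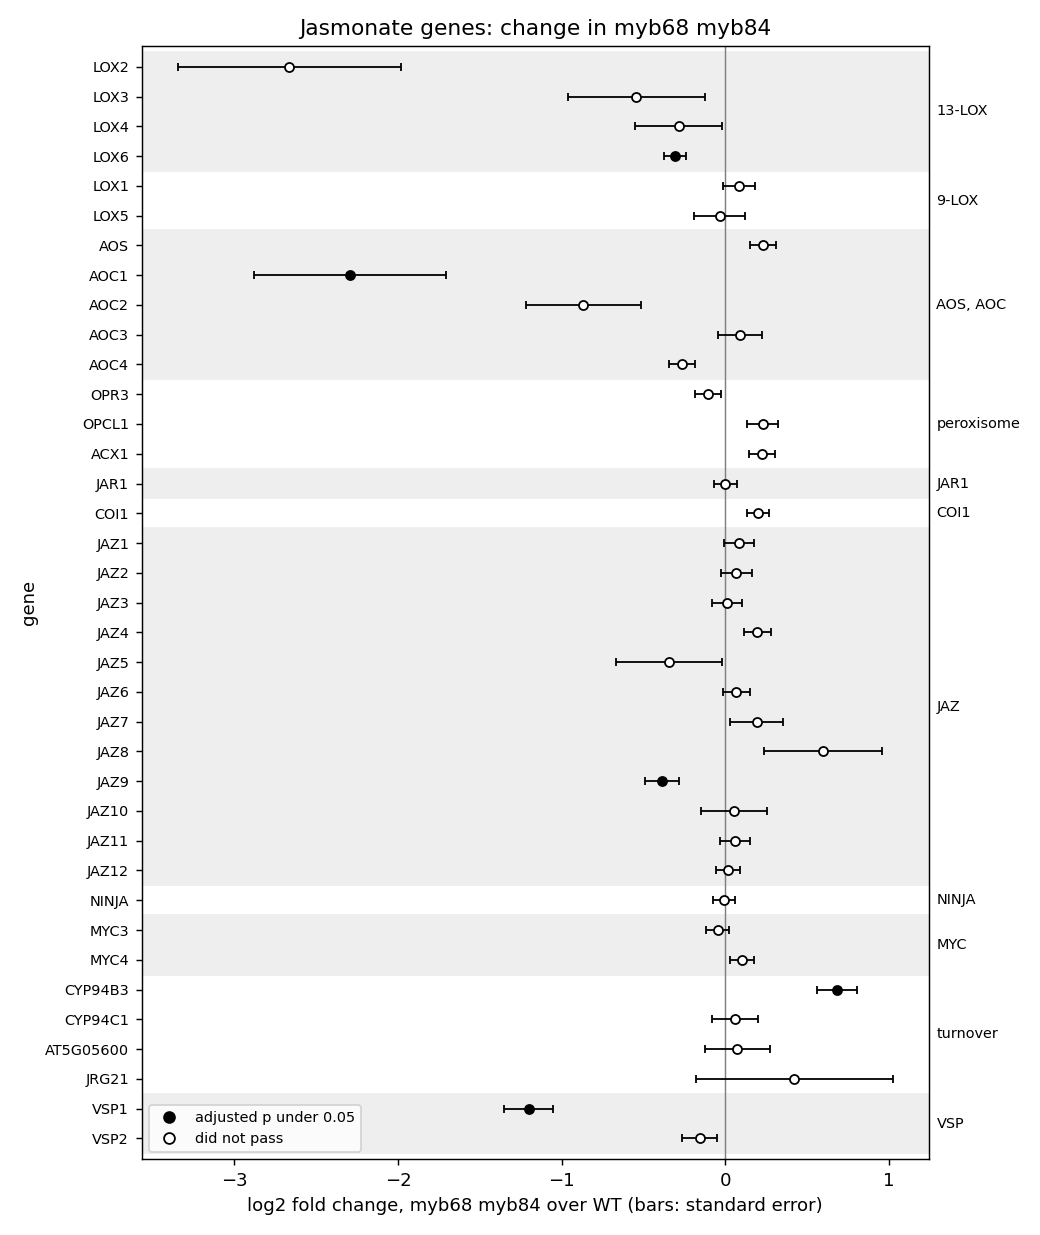
Log2 fold change (myb68 myb84 over WT, x axis) with its standard error for the 37 tested jasmonate genes (y axis), grouped by role, with filled points for genes at an adjusted p under 0.05. VSP1 (-1.20) and AOC1 (-2.29) lie farthest left among the filled points and CYP94B3 (0.68) is the filled point on the right, while most signalling genes lie near 0.

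Levels between genes were compared as RPKM, the CPM divided by the exon length in kilobases. VSP2 was the most abundant member in WT, at 614 ± 74.8 RPKM (SD, n = 3), followed by the 9-lipoxygenase gene LOX1 at 402 ± 34.3 RPKM and VSP1 at 294 ± 55.3 RPKM. The oxygenase gene AT5G05600 (99.7 ± 28.6 RPKM) and JAZ1 (93.6 ± 3.32 RPKM) came next and did not differ beyond their spread. MYC3, ACX1 and JAZ12 stood between 70.1 and 78.8 RPKM in WT. At the other end, LOX3 was at 0.197 ± 0.0300 RPKM, and the lipase gene DAD1, which acts in anthers, had 0 counts in each WT library and 2, 2 and 4 counts in the mutant libraries. DAD1 was therefore not tested. A count of 0 allows up to 0.152 CPM in the shallowest library, counting error only, if each count is a separate fragment. All counts of DAD1, LOX4 and AOC1 were even numbers, and whether the ends of a fragment were counted apart is unknown here. If they were, the limit would be higher. The counts of AOC1, 6 to 94 a library, would then stand for fewer fragments.

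**Figure D2:**
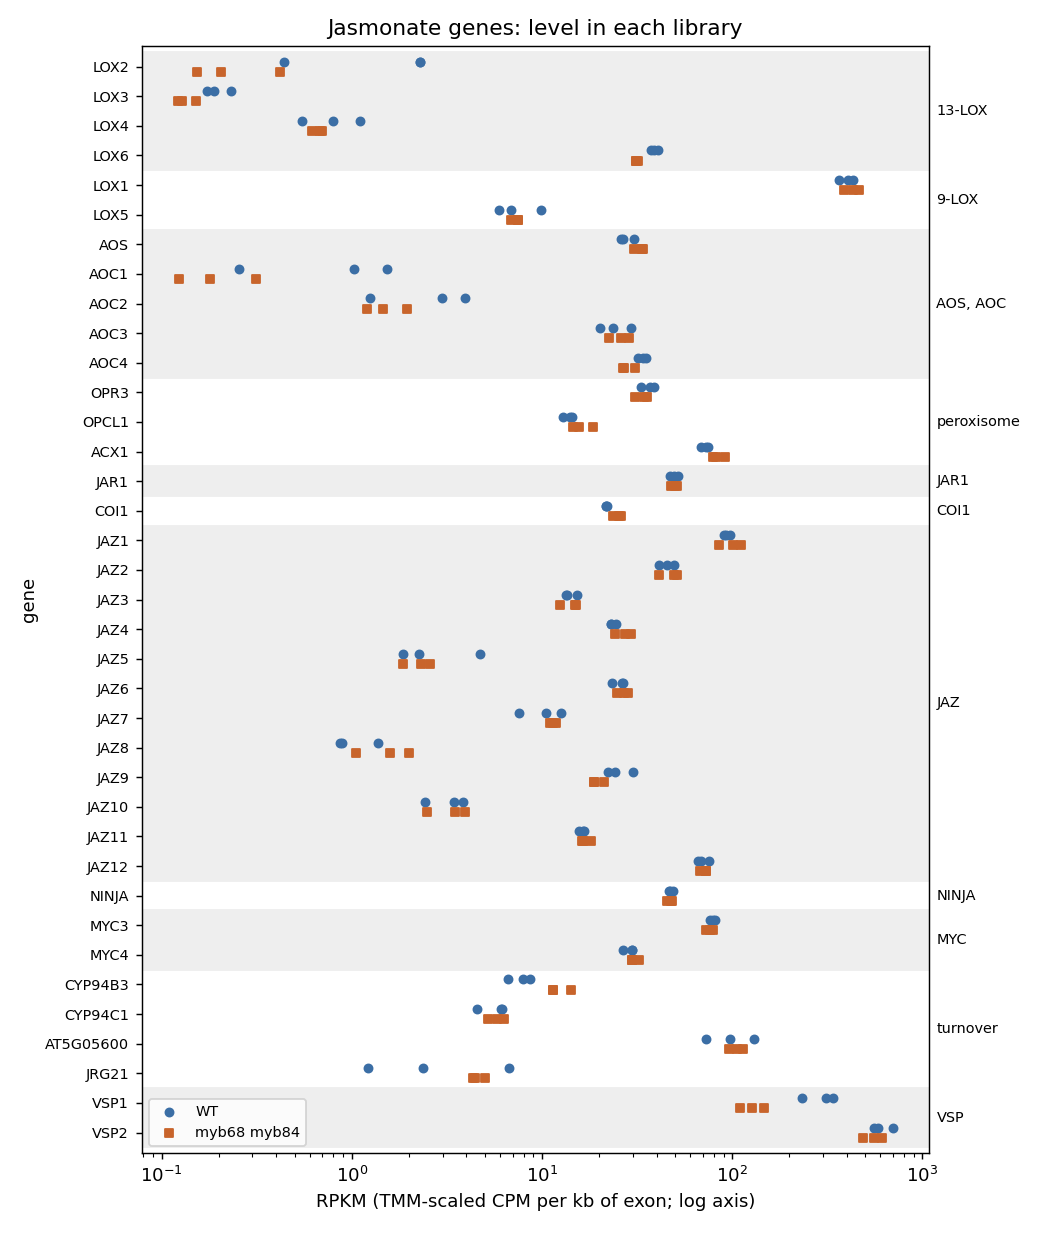
Level of each jasmonate gene (y axis, by role) in each library, in RPKM on a log axis, with circles for the 3 WT libraries and squares for the 3 myb68 myb84 libraries; DAD1, at 0 counts in WT, is not drawn. VSP2, LOX1 and VSP1 lie highest, and the squares of VSP1 lie left of its circles without overlap.

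VSP1 and VSP2 encode vegetative storage proteins, acid phosphatases with anti-insect activity whose transcripts are standard markers of jasmonate response. VSP1 (AT5G24780, chromosome 5, 8507590 to 8509201 in TAIR10.1) had 311, 418 and 453 CPM in WT 1, 2 and 3 and 147, 169.6 and 196 CPM in myb68 myb84 1, 2 and 3. Every mutant library was below every WT library. The means were 394 ± 74.0 CPM and 171 ± 24.7 CPM, or -1.20 ± 0.15 (SE) on the log2 scale (adjusted p = 0.00159, edgeR), and the call held in all 6 fits that left out 1 library. VSP2 (AT5G24770, 8500468 to 8502224 on the same strand) had 888, 1060 and 846 CPM in WT and 737, 932.2 and 839 CPM in the mutant. Its genotypes overlapped, with a difference of -0.16 ± 0.11 (SE) on the log2 scale that did not pass (adjusted p = 0.449). The ratio of VSP1 to VSP2 counts was 0.350, 0.394 and 0.535 in WT and 0.200, 0.182 and 0.234 in myb68 myb84. These ratios did not overlap, and their mean log2 difference of -1.04 had a p of 0.1 in a two-sided exact permutation test, the smallest that 3 against 3 libraries can give. VSP1 alone already separated the genotypes, so this result is not independent of the VSP1 call. The sum of the 2 genes was 1199 to 1477 CPM in WT and 884 to 1102 CPM in the mutant.

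The 2 VSP genes lie 5365 bases apart and their coding sequences are 87.8% identical, so how well reads tell them apart bears on the difference between them. A stretch of 120 coding bases, coding positions 64 to 183 of VSP1 and 49 to 168 of VSP2, is shown from TAIR10.1 (minus strand, chr5:8508707-8508826 and chr5:8501677-8501796), with the 8 bases that differ in capitals.
VSP1: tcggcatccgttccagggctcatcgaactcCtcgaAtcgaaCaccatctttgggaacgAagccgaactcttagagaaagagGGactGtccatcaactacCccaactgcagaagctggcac
VSP2: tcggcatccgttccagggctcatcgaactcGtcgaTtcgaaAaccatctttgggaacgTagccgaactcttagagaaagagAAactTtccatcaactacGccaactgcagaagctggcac
Of the 50-base windows in VSP1 exons, 0.420% occur elsewhere in the nuclear genome without a mismatch, and of those in VSP2 exons 0.353%. Read length and the handling of multiply mapping reads are unknown here.

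**Figure D3:**
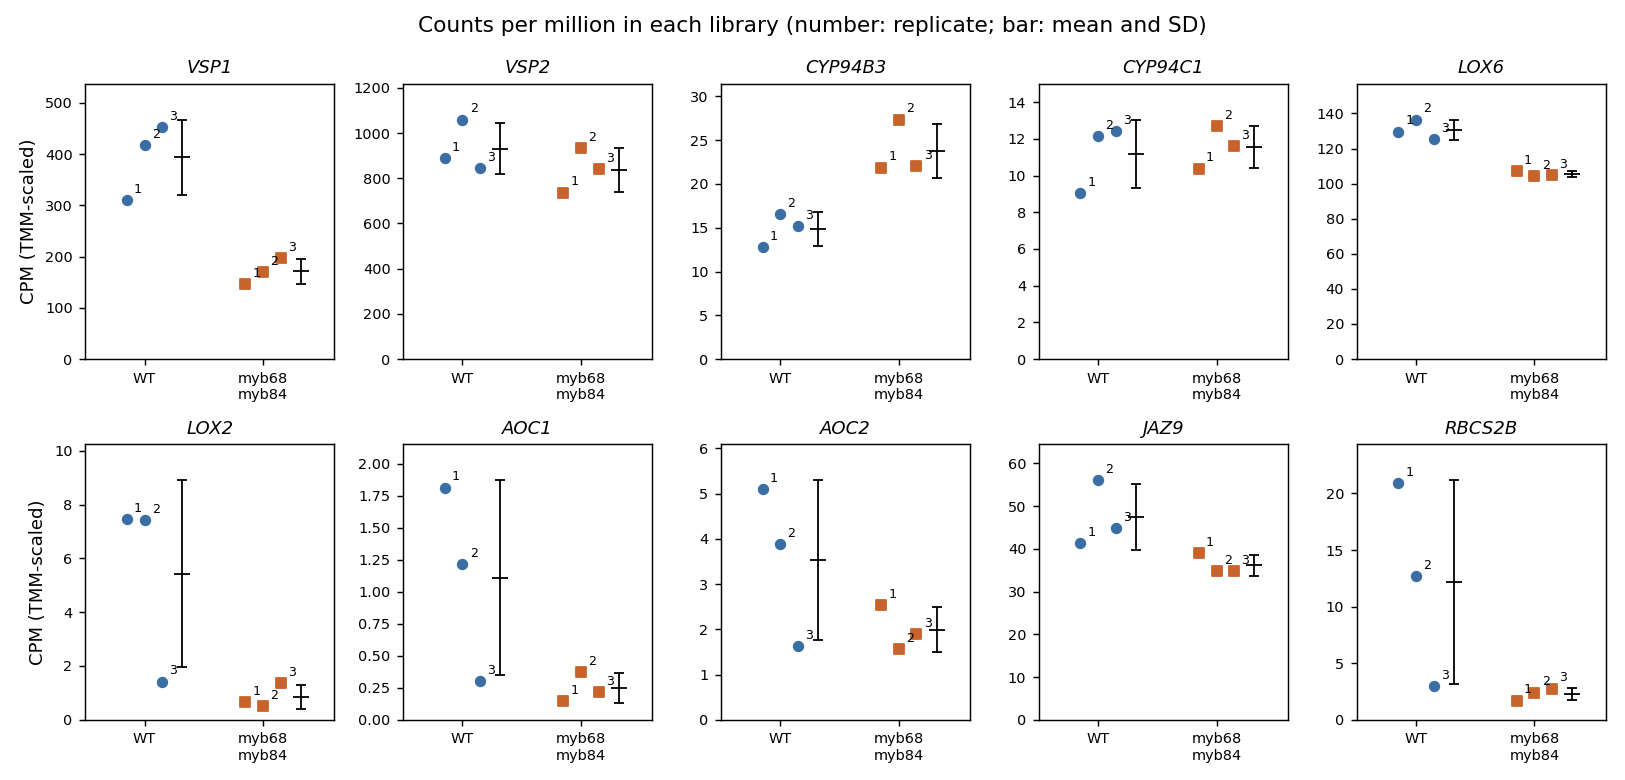
CPM in each library (y axis, from 0) for 9 jasmonate genes and the photosynthetic gene RBCS2B, with WT as circles, myb68 myb84 as squares, replicate numbers beside the points and the mean and SD at the right of each group. VSP1 and LOX6 are lower and CYP94B3 higher in every mutant library, while LOX2, AOC1, AOC2 and RBCS2B are high in WT 1 and WT 2 and low in WT 3.

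Among the 12 tested synthesis genes, edgeR called 2 lowered, in plastid steps, and 0 raised. This is 16.7% called, against 8.30% of all tested genes, of which 3.65% were lowered. DESeq2 and limma-voom also called 0 synthesis genes raised. An unadjusted p under 0.05 (edgeR) was reached by 3 synthesis genes with higher and 5 with lower levels. The share of all tested genes at that unadjusted p was not determined, here or for the lists below. LOX6, a 13-lipoxygenase, supplied 92.2% to 97.2% of the summed 13-LOX RPKM in the 6 libraries. It had 129.6, 136.5 and 125 CPM in WT 1, 2 and 3 and 107, 104 and 105 CPM in myb68 myb84 1, 2 and 3. The mutant libraries were all lower, by 0.31 ± 0.07 (SE) on the log2 scale (adjusted p = 0.0127, edgeR), a call that ended without myb68 myb84 2 (adjusted p = 0.0581) or without myb68 myb84 3 (0.0633). The other 13-LOX genes had negative log2 fold changes that did not pass. LOX3, on 12 to 30 counts a library, had 0.579, 0.533 and 0.711 CPM in WT and 0.466, 0.374 and 0.392 CPM in the mutant, lower in every mutant library (-0.54 ± 0.42 SE, adjusted p = 0.505). LOX4 was at -0.28 ± 0.27 (SE). The summed 13-LOX level was 39.3 to 43.9 RPKM in WT and 32.1 to 33.2 RPKM in the mutant. The 9-lipoxygenases, which oxygenate another carbon and make other oxylipins, did not pass, with LOX1 at 0.09 ± 0.10 (SE) and LOX5 at -0.03 ± 0.16 (SE).

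LOX2, the abundant wound-response lipoxygenase of leaves, was a rare transcript in these roots and split the WT libraries. It had 7.45 and 7.42 CPM in WT 1 and 2 but 1.42 CPM in WT 3, and 0.663, 0.499 and 1.35 CPM in myb68 myb84 1, 2 and 3. WT 3 was thus just above the highest mutant library. The log2 fold change of -2.66 ± 0.68 (SE) did not pass (adjusted p = 0.0749), while DESeq2 called it (0.0105), as did the fit without WT 3 (4.81e-05), and limma-voom did not (0.166). AOC1, 1 of 4 cyclase genes, had 1.81, 1.22 and 0.305 CPM in WT and 0.147, 0.374 and 0.214 CPM in the mutant. It passed as lowered (log2 -2.29 ± 0.59 SE, adjusted p = 0.0301) although WT 3 lay among the mutant libraries. The AOC1 call ended without WT 1 (adjusted p = 0.194), WT 2 (0.0782), myb68 myb84 1 (0.109) or myb68 myb84 3 (0.116) and with limma-voom (0.0557). AOC2, its neighbour on chromosome 3, had 5.10, 3.88 and 1.63 CPM in WT and 2.53, 1.56 and 1.89 CPM in the mutant, and did not pass (log2 -0.87 ± 0.35 SE, adjusted p = 0.172) except without WT 3 (0.00848).

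The same libraries stood out for 2 genes of the comparison lists. RBCS2B, a small Rubisco subunit among 12 markers of photosynthetic shoot cells, had 20.9, 12.7 and 2.95 CPM in WT 1, 2 and 3 and 1.69, 2.40 and 2.76 CPM in myb68 myb84 1, 2 and 3. CORI3, a jasmonate-induced gene best known from leaves, had 64, 16 and 2 counts in WT 1, 2 and 3 and 0, 2 and 4 counts in the mutant libraries. It had too few counts to be tested and is 1 of 16 further response genes. Of the 11 tested among these, 5 had positive and 6 had negative log2 fold changes. The remaining 11 shoot markers went the other way: all were higher in every mutant library than in any WT library, and 6 of them passed. The 12 markers summed to 1547 to 2428 CPM in WT, lowest in WT 3, and to 3162 to 3565 CPM in the mutant, and none was at 0. The part that shoot cells have in the LOX2, AOC1 and AOC2 values was not tested.

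The more abundant AOC genes, AOS and the peroxisomal genes did not pass in the main fit. AOC4 and AOC3, which made up 46.6% to 56.9% and 34.0% to 49.8% of the summed AOC RPKM, were at -0.26 ± 0.08 (SE) and 0.09 ± 0.13 (SE) on the log2 scale, and neither passed (adjusted p = 0.0651 and 0.758). AOC4 was lower in every mutant library and passed as lowered with upper-quartile scaling (adjusted p = 0.0453). The 4 AOC genes together had 86.1 to 93.5 CPM in WT and 75.2 to 86.8 CPM in the mutant, so the low AOC1 and AOC2 values were a small part of the family. AOS had 54.3, 62.2 and 52.8 CPM in WT and 68.0, 61.6 and 69.0 CPM in the mutant, and its difference of 0.23 ± 0.08 (SE) did not pass (adjusted p = 0.103) except without WT 2 (0.0322). ACX1 and OPCL1 were higher in every mutant library, by 0.22 ± 0.08 (SE) and 0.23 ± 0.09 (SE), and did not pass (adjusted p = 0.0998 and 0.162). OPR3 was at -0.11 ± 0.08 (SE).

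Hormone conjugation, perception and the MYC factors showed no call. JAR1 had 134.8 ± 6.62 CPM in WT and 134.7 ± 5.28 CPM in the mutant, a log2 difference of -0.00030 ± 0.070 (SE). COI1 had 54.9, 54.5 and 54.6 CPM in WT and 63.6, 64.9 and 59.6 CPM in the mutant. All mutant libraries were above WT, by 0.20 ± 0.07 (SE), and the difference did not pass (adjusted p = 0.0951). MYC3, MYC4 and NINJA, the adaptor that links JAZ proteins to a co-repressor, were at -0.05, 0.10 and -0.0078, with standard errors of 0.066 to 0.074. MYC2, the best known MYC factor of the pathway and no member of the 38, had 0 counts in all libraries. In TAIR10.1, 98.5% of its exon bases lie in an exon of AT1G32630 on the opposite strand, and how the counting treated such overlaps is unknown, so MYC2 was not analysed here.

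Of the 12 JAZ repressor genes, edgeR called JAZ9 lowered and 0 raised, and 11 did not pass, with a median log2 fold change of 0.06. This is 8.33% called, near the 8.30% of all tested genes. The genotypes did not overlap in 1 of the 12, or 8.33%, against 27.2% of all tested genes. DESeq2 and limma-voom also called 0 raised, and 1 was higher at an unadjusted p under 0.05. JAZ9 had 41.4, 56.0 and 44.9 CPM in WT 1, 2 and 3 and 39.1, 34.7 and 34.8 CPM in myb68 myb84 1, 2 and 3. The genotypes did not overlap, but the highest mutant library was close to the lowest WT library. The log2 fold change was -0.39 ± 0.11 (SE), with an adjusted p of 0.0401, and the call ended without WT 2 (0.104) or without any 1 mutant library (0.0558, 0.136 and 0.143). JAZ1 and JAZ12 were the leading members of the family, with 28.3% ± 1.33 and 21.2% ± 1.19 of the summed JAZ RPKM in WT and 29.1% ± 1.98 and 21.0% ± 1.79 in the mutant (SD, n = 3). JAZ1 was at 0.09 ± 0.09 (SE) and JAZ12 at 0.02 ± 0.07 (SE). JAZ5, JAZ7, JAZ8 and JAZ10, members that rise strongly after wounding in leaves, were low here, between 1.04 and 10.2 RPKM in WT. Their differences of -0.35, 0.19, 0.60 and 0.05 had standard errors of 0.16 to 0.36 and none passed. JAZ5 was highest in WT 3, at 10.6 CPM against 4.15 to 5.79 CPM in the other libraries. JAZ2, JAZ3, JAZ4, JAZ6 and JAZ11 lay between 0.01 and 0.20 on the log2 scale. The summed JAZ level was 312 to 347 RPKM in WT and 317 to 358 RPKM in the mutant.

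**Figure D4:**
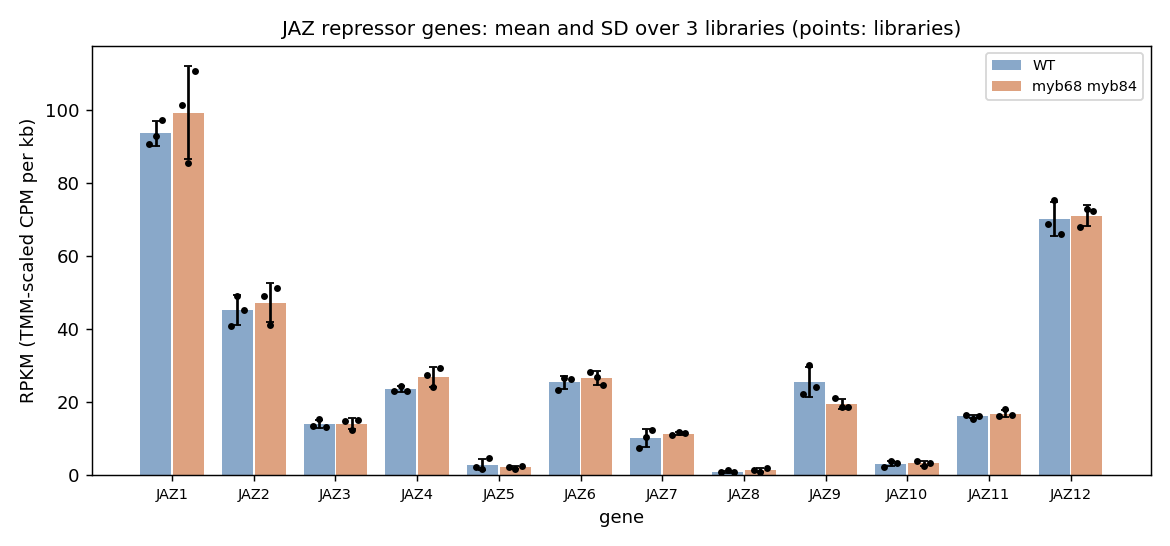
RPKM (y axis, from 0) of the 12 JAZ repressor genes as the mean and SD over 3 libraries per genotype, with each library as a point. JAZ1 and JAZ12 stand highest in both genotypes, and JAZ9 is the gene whose mutant points all lie below its WT points.

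Turnover of the hormone is represented by a pair of CYP94 cytochromes, which oxidize the isoleucine conjugate, and a pair of oxygenase genes. CYP94B3 (AT3G48520, chromosome 3, 17974853 to 17976774) had 12.8, 16.6 and 15.2 CPM in WT 1, 2 and 3 and 21.9, 27.4 and 22.1 CPM in myb68 myb84 1, 2 and 3. Every mutant library was above every WT library. The means were 14.9 ± 1.94 and 23.8 ± 3.11 CPM, or 0.68 ± 0.12 (SE) on the log2 scale (adjusted p = 0.00395, edgeR), and the call held in all 6 fits that left out 1 library. CYP94C1, which acts after CYP94B3, had 9.05, 12.1 and 12.4 CPM in WT and 10.4, 12.7 and 11.6 CPM in the mutant, and did not pass (0.06 ± 0.14 SE). The ratio of CYP94B3 to CYP94C1 counts was 1.41, 1.37 and 1.23 in WT and 2.11, 2.16 and 1.91 in the mutant. These ratios did not overlap, and the exact permutation test again gave the smallest p possible, 0.1. CYP94B3 alone already separated the genotypes, so this result is not independent of the CYP94B3 call. AT5G05600, annotated as a 2-oxoglutarate-dependent oxygenase, had 233, 310.1 and 173 CPM in WT and 272, 229 and 254 CPM in the mutant. JRG21, a jasmonate-regulated gene whose coding sequence is 65.3% identical to it, had 5.14, 14.5 and 2.64 CPM in WT and 10.9, 9.36 and 9.68 CPM in the mutant. The highest and the lowest value of both genes were in WT libraries, and neither passed (adjusted p = 0.877 and 0.757), although JRG21 passed as raised without WT 2 (0.0109).

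**Figure D5:**
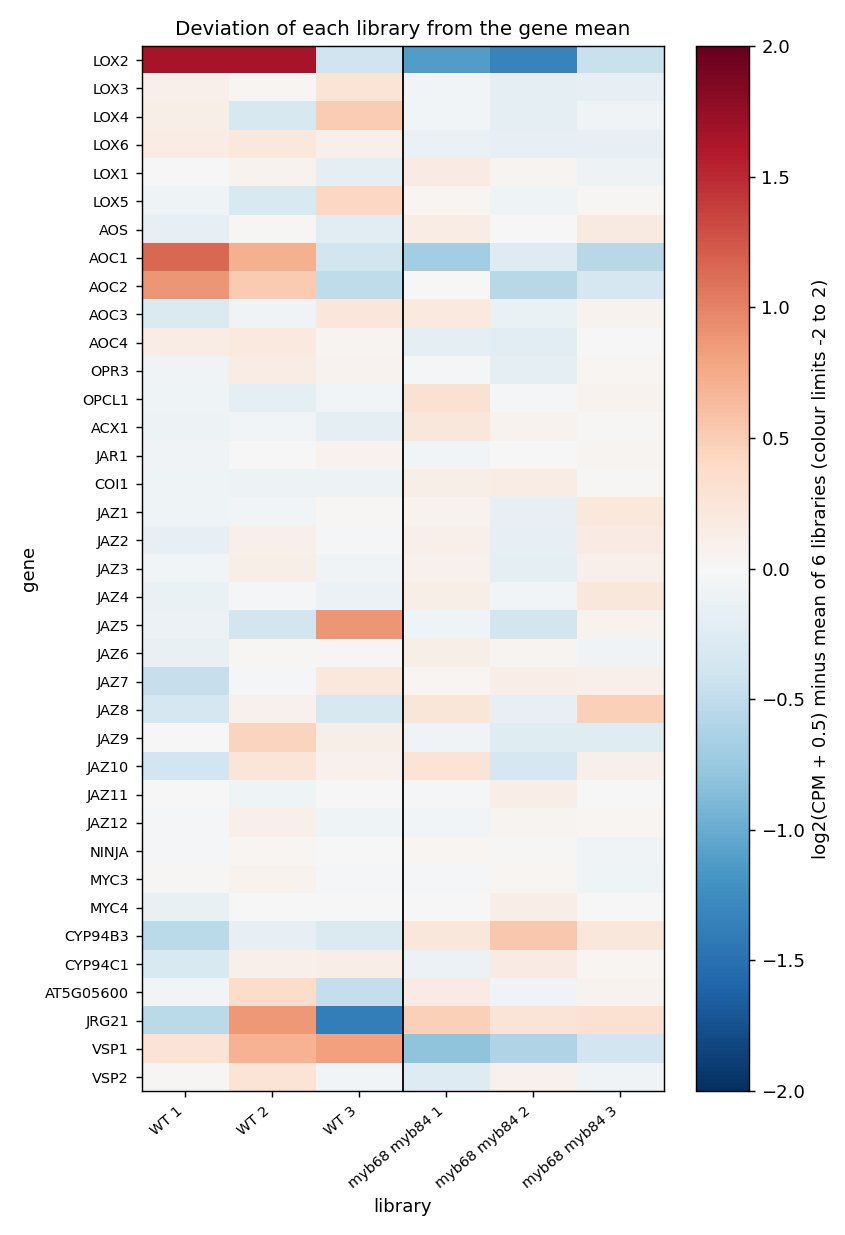
Deviation of each library (x axis) from the mean of the 6 libraries for 37 jasmonate genes (y axis, DAD1 left out), as log2(CPM + 0.5), in blue for lower and red for higher. VSP1 is red in the WT columns and blue in the mutant columns, CYP94B3 the reverse, LOX2, AOC1 and AOC2 are reddest in WT 1 and WT 2, and JRG21 differs most among the WT libraries.

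The 300 bases before the annotated gene start are shown for the 2 genes whose calls held without any 1 library, and for VSP2, whose coding sequence is close to that of VSP1 (TAIR10.1, minus strand, chr5:8509202-8509501 for VSP1, chr5:8502225-8502524 for VSP2 and chr3:17976775-17977074 for CYP94B3). Capitals mark a motif found.
VSP1: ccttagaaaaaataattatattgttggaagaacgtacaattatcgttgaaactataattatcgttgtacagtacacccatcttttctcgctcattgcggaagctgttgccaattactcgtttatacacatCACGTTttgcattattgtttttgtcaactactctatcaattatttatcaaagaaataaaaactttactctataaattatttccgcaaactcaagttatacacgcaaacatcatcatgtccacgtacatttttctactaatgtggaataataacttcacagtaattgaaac
VSP2: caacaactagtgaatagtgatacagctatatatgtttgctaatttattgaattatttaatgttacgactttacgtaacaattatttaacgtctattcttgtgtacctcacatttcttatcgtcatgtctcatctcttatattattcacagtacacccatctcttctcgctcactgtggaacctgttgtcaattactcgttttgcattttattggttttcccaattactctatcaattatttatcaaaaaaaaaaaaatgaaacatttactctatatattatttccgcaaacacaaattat
CYP94B3: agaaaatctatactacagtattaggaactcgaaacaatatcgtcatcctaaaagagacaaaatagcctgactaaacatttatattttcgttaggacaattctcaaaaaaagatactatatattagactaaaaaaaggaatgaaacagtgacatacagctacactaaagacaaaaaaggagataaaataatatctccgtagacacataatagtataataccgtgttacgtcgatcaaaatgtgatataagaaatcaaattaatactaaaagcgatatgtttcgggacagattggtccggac
Both strands were searched for the G-box CACGTG, the related MYC-binding motifs AACGTG and CACATG, and the AC elements ACCTACC and ACCAACC bound by R2R3 MYB factors. VSP1 held AACGTG, read on the opposite strand as CACGTT, 170 bases before the start. VSP2 and CYP94B3 held none of these letters in this window. Over the 38 members, CACGTG occurred in 6 promoters (15.8%, against 7.09% of 27444 protein-coding promoters), AACGTG in 9 (23.7% against 8.71%) and CACATG in 8 (21.1% against 13.1%). The AC elements occurred in 0 of the 38, against 1.33% and 3.18% of all promoters. Among the genes called, AOC1 held AACGTG and JAZ9 held CACATG, and LOX6 held none. A match is a description of the sequence only.

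Jasmonate genes outside the 38 gave a similar picture of few single calls. Of 24 further enzymes, transporters and regulators, 19 were tested, 1 was raised and 1 was lowered, or 10.5% against 8.30% of all tested genes, with a median log2 fold change of 0.06. Without WT 2 the further pathway genes called were 4 raised and 1 lowered. JAM1, a bHLH repressor of jasmonate responses, had 12.3, 12.02 and 15.2 CPM in WT and 21.3, 17.4 and 18.7 CPM in the mutant (log2 0.55 ± 0.12 SE, adjusted p = 0.0127), a call that ended without WT 1 (0.0684) or myb68 myb84 1 (0.0590). OPR2, an oxophytodienoate reductase of the class that does not include OPR3, had 29.6, 27.1 and 33.9 CPM in WT and 17.4, 19.1 and 20.6 CPM in the mutant (log2 -0.66 ± 0.10 SE, adjusted p = 0.00142), a call that held in all 6 fits without 1 library. OPR2 shares 13.4% of its exon bases with its neighbour OPR1, which was lower in every mutant library and did not pass (-0.43, adjusted p = 0.176). Of 16 further response genes, 11 were tested, 0 were raised and 2 were lowered, or 18.2% against the same 8.30%, with a median of -0.07. DESeq2 called 3 of these response genes lowered and 0 raised, limma-voom 2 and 0, and at an unadjusted p under 0.05 there were 2 lower and 0 higher. The balance of the response genes was not stable, since the replicate block called 1 raised and 2 lowered and the fit without WT 2 called 2 raised and 1 lowered. JR1, a jasmonate-responsive lectin gene, had 961, 1130 and 933 CPM in WT and 746, 729 and 750.5 CPM in the mutant (log2 -0.44 ± 0.09 SE, adjusted p = 0.00877), and this call held in all 6 fits without 1 library. ERF1, a transcription factor of the ethylene and jasmonate response, had 10.5, 11.6 and 6.60 CPM in WT and 6.80, 5.46 and 5.31 CPM in the mutant (log2 -0.73 ± 0.19 SE, adjusted p = 0.0347), with WT 3 below the highest mutant library, and this call ended in 4 of the 6 fits without 1 library (WT 1, WT 2, and mutant libraries 2 and 3; adjusted p up to 0.141). The plant defensin genes PDF1.2A and PDF1.2B and the thionin gene THI2.1 had 0 counts in all libraries.

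A list of 13 early wound and touch genes was read beside the jasmonate genes. Of 12 tested, ERF13 was raised (1.05, adjusted p = 0.0282), TCH3 was lowered (-0.44, adjusted p = 0.0496) and 10 did not pass, with a median of 0.04. The calls are 16.7%, against 8.30% of all tested genes. ERF13 was higher in every mutant library. TCH4 was lower in every mutant library and did not pass (-0.66, adjusted p = 0.0533). The summed level of the 13 genes was 554, 445 and 663 CPM in WT 1, 2 and 3 and 532, 551 and 546 CPM in myb68 myb84 1, 2 and 3. The mutant sums thus lay within the WT range.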

How the data were processed

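RNA was sequenced from root segments of 2 genotypes with 3 pools each, grouped by sample title. The deposited files hold raw counts per gene, which the authors made, per the submitters' processing notes, with Trim Galore, HISAT and featureCounts on TAIR10; the sources used here give no versions, strand setting or annotation. p-values measure the spread between pools.

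Counts were tested with edgeR 4.0.16 (R 4.3.3; quasi-likelihood, robust, TMM, filterByExpr with a minimum count of 10, genotype as the term) over all genes, with Benjamini-Hochberg adjustment at 0.05. The standard error is the log2 fold change over the square root of F. The step was tested on simulated data. Symbols, exon lengths, promoters and overlaps came from the RefSeq annotation of TAIR10.1, and sequences were compared in Biopython 1.88. Alternatives were DESeq2 1.42.0 and its size factors, upper-quartile scaling, limma-voom (limma 3.58.1), other count filters, a replicate block and each library left out. Members and lists were chosen with earlier results of these data known. All members are given; members called, or without overlap at a log2 size of at least 0.5, are given by library, as are called genes of the other jasmonate lists. AOS, AOC2, COI1, VSP2, CYP94C1, AT5G05600, JRG21, RBCS2B, CORI3, OPR1, RAP2.6, ST2A, TCH4 and SZF1 were named or given by library after their values were seen.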

Additional observations from a re-analysis of the deposited data

How the results depend on the processing

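The numbers of called genes stayed within 1.5 times the reported ones under DESeq2 size factors, upper-quartile scaling, both other count filters, DESeq2, limma-voom and the replicate block. With 1 library left out they ran from 1024 to 1670 for all genes (main 1739), 2 to 7 for the 38 members (main 5), 1 to 5 for further pathway genes (main 2) and 1 to 4 for further response genes (main 2). For all genes the count fell by more than 1.5 times without WT 1 (1024), mutant library 2 (1062) or mutant library 3 (1068). Direction across these settings was followed only for members called in any fit, LOX3 and the called genes of the other jasmonate lists. None of these changed direction, and the direction of the other genes was not followed. Same-numbered libraries did not deviate together (correlations of -0.0059, 0.0244 and 0.0837), and not every library correlated best with its own number. With the replicate block, 2069 genes, 5 members, 3 further pathway genes and 3 further response genes were called. LOX3, AOC1 and JAZ8 had low counts, and their standard errors were 0.36 to 0.59 on the log2 scale. LOX2 and JRG21, on more WT counts, had standard errors of 0.68 and 0.60.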

Other observations

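The median coefficient of variation of the 11 tested response genes outside the 38 was 29.6% in WT and 16.8% in myb68 myb84, against 9.64% and 7.82% over all tested genes, and it was larger in WT for 9 of the 11 and for 59.7% of all tested genes. The 37 tested members of the pathway showed little of this, with medians of 9.0% in WT and 8.46% in the mutant and a larger value in WT for 62.2% of them. WT 2 was the highest WT library in 9 of the 11 response genes and WT 3 the lowest in 10. Among the 37 tested members, WT 2 was highest in 21 and WT 3 lowest in 14, while WT 1 was lowest in 16. Of the 19 tested further pathway genes, WT 2 was highest in 11 and WT 3 lowest in 6. RAP2.6, an ERF gene induced by jasmonate, had 77.8, 126 and 57.1 CPM in WT 1, 2 and 3 and 95.6 to 117 CPM in the mutant libraries. ST2A, a sulfotransferase of hydroxyjasmonate among the further pathway genes, had 67.2, 127 and 65.2 CPM in WT and 93.2 to 108 CPM in the mutant. JRG21 and AT5G05600 of the turnover group were likewise highest in WT 2 and lowest in WT 3. CYP94C1 and CYP94B3 of the same group were lowest in WT 1, and CYP94C1 was highest in WT 3.

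Early wound and touch genes were ordered in reverse among the same WT libraries. WT 2 was the lowest WT library in 11 of the 12 tested genes and WT 3 the highest in 10. SZF1, a zinc finger gene, had 82.9, 66.5 and 123 CPM in WT 1, 2 and 3 and 92.2 to 102 CPM in the mutant. The median coefficient of variation of these 12 genes was 24.4% in WT and 9.57% in myb68 myb84. VSP1 and CYP94B3 did not follow either order in full, and both were lowest in WT 1. VSP1 was highest in WT 3, as were most wound and touch genes. CYP94B3 was highest in WT 2, as were most of the response genes. These orders were noticed after the values were seen and were not tested, and the share of all tested genes with either order was not determined.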
